A study of Mus musculus with 4 samples.

Results

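The cells described here are CD8 T cells that carried interferon gamma transcript at the time of capture. They were chosen on a measured value, namely at least 3 unique molecular identifiers (UMIs, each standing for 1 captured transcript) of Ifng in a cell. The cells considered had 500 or more detected genes, 1000 or more UMIs of which mitochondrial transcripts made up 10% or less, fewer than 2 UMIs of the B cell genes Cd79a and Ms4a1 together, and fewer than 5 UMIs of the granzyme genes Gzma and Gzmb together. Of 11113 barcodes, 9770 passed these filters, and 633 of those, 6.48%, were Ifng cells. The other 9137 cells are called the remaining cells. The Ifng cells numbered 28 and 123 in C6M9 replicates 1 and 2, and 433 and 49 in M9 replicates 1 and 2. M9 replicate 1 therefore held 68.4% of them, and each result is given by library.

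The study is titled around T cell receptor (TCR) engagement of progenitor exhausted CD8 T cells. Its 4 single-cell libraries (10x Genomics Chromium 3′ chemistry) came from lymph node CD8 T cells sorted on CD44, a marker of antigen experience, and on CD90.1. The nodes, which drained a tumour, were taken from C57BL/6 mice 14 days after tumour implantation. The C6M9 group is labelled low affinity GP33 and the M9 group high affinity GP33, where GP33 is a viral peptide epitope used to study CD8 T cells. Cells of 35 mice for C6M9 and 10 for M9 were pooled into biological duplicates, and 14900 and 11600 cells of C6M9 and 16500 of each M9 duplicate were loaded. The tissue, the sorting gate and the day were shared by both groups. The labels do not say which mouse a cell came from, so each library counts as 1 replicate (n = 2 per group). P-values between the groups within a set of cells measure the spread between libraries of pooled mice. Those that compare Ifng with remaining cells, also between the groups, measure the spread over libraries of the gap within a library.

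Interferon gamma is the main cytokine by which CD8 T cells act on macrophages, antigen-presenting cells and tumour cells. Its gene is silent or low in resting cells and is transcribed within hours of TCR signalling, through NFAT, AP-1 and NF-kB factors acting at a locus opened by T-bet, Eomes and STAT4. The chemokine genes Ccl3 and Ccl4 and the orphan nuclear receptor gene Nr4a1 (Nur77) are induced by the same signal. In GRCm38 the mouse Ifng gene lies on chromosome 10 (118441046-118445892, plus strand). Ccl3 (83647844-83649355, minus strand) and Ccl4 (83662584-83664683, plus strand) are neighbours on chromosome 11, and Nr4a1 lies on chromosome 15 (101254269-101274795, plus strand).

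The 250 bases before the annotated RefSeq start (GRCm38.p6) are shown for Ifng and the 2 companion genes with an entry, since these genes define the cells or were proposed with them. Capitals mark GGAAA, the core bound by NFAT, and TGACG, part of the cyclic AMP response element, on either strand (TTTCC and CGTCA on the other strand). The positions are chr10:118440796-118441045 (plus strand), chr11:83649379-83649628 (minus strand) and chr15:101266596-101266845 (plus strand).
Ifng: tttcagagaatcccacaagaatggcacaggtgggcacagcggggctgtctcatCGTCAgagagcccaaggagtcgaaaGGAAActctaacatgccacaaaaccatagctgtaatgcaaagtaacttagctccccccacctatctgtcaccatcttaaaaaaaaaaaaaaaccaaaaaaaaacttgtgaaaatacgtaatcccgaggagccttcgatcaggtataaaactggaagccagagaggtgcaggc
Ccl3: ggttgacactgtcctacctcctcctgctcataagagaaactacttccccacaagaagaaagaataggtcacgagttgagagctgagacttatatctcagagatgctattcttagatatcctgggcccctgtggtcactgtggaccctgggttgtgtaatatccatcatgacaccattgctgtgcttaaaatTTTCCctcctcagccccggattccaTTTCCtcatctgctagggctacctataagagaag
Nr4a1: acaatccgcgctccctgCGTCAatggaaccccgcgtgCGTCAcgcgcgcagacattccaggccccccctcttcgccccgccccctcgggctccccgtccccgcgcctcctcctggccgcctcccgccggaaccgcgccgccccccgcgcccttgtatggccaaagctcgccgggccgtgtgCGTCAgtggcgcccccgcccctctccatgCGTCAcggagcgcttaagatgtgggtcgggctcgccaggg
The Ifng window held 1 match of each motif, the Ccl3 window 2 of GGAAA, and the Nr4a1 window 4 of TGACG. At least 1 GGAAA stood in 55.6% and at least 1 TGACG in 17.8% of 32851 such mouse windows, and 4 or more TGACG in 0.137%. The AP-1 motif TGANTCA stood in 6.75% of all windows and in none of these 3.

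The share of Ifng cells differed more between libraries than between the groups. It was 1.00% (95% exact binomial interval 0.667 to 1.45) and 7.38% (6.17 to 8.75) of cells in C6M9 replicates 1 and 2, against 10.5% (9.59 to 11.5) and 4.11% (3.06 to 5.40) in M9 replicates 1 and 2. These intervals cover counting error alone. The groups overlapped, with a mean of 4.19 ± 4.51% in C6M9 and 7.31 ± 4.52% in M9 (SD, n = 2 each). The difference of -3.12 percentage points had p = 0.667 in a two-sided exact permutation test over libraries, whose smallest possible p is 0.3333. It was 0.071 points without C6M9 replicate 1 and 0.0785 points without M9 replicate 1, so its direction rested on these 2 libraries. Among cells of 20000 to 60000 UMIs, a range chosen after seeing the data, the share was 1.34% and 6.21% in C6M9 and 18.4% and 6.76% in M9. The groups then did not overlap, but C6M9 replicate 2 (39 of 628 cells) and M9 replicate 2 (35 of 518 cells) lay close. The difference was -8.80 points with the smallest possible p of the same permutation test, 0.3333. The level of Ifng over all filtered cells, which does not use the threshold, was 6.43 and 17.3 UMIs per 1000000 in C6M9 and 47.3 and 13.6 per 1000000 in M9, in replicate order.

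Fos and Dusp1, genes of the immediate early response, were highest in the 2 libraries with the largest shares of Ifng cells, also in cells outside the Ifng set. Fos did not keep the order of the shares in the other libraries. In the remaining cells Fos stood at 14.8 and 55.04 UMIs per 1000000 in C6M9 replicates 1 and 2, against 61.2 and 13.4 in M9 replicates 1 and 2. Dusp1, a phosphatase gene of the same response, stood at 10.8 and 39.1 per 1000000 in C6M9 and 71.7 and 13.4 in M9. The libraries high in Ifng cells, C6M9 replicate 2 and M9 replicate 1, were thus the high ones for both genes, which were picked after their values had been seen. Egr1 did not follow, at 26.2 and 27.2 per 1000000 in C6M9 and 55.2 and 42.6 in M9, in cells with 0 Ifng UMIs. Nr4a1 in the remaining cells was lower in C6M9 replicate 2 (11.1) than in M9 replicate 2 (12.9). Jun and Nfkbia were again highest in C6M9 replicate 2 and M9 replicate 1. The summed level of 17 heat shock and dissociation stress genes in the remaining cells was 6786 and 6885 per 1000000 in C6M9 and 6816 and 6682 in M9, highest in the same 2 libraries and with less spread than Fos or Dusp1. In the Ifng cells it was 7294 and 7120 per 1000000 in C6M9 and 7210 and 7378 in M9, lowest in those 2 libraries. Abundant heat shock genes make up much of this sum, so it cannot show how the less abundant genes moved. Hsp90ab1 stood at 2657 and 2251 TMM-scaled UMIs per 1000000 in C6M9 Ifng cells and 2378 and 2732 in M9 Ifng cells. Ier2 of the same list stood at 106 and 152 in C6M9 and 192 and 111 in M9, highest in C6M9 replicate 2 and M9 replicate 1. Ppp1r15a was highest in the same libraries as Ier2, and Ier3 was not. The part of handling in the share of Ifng cells was not tested.

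**Figure D1:**
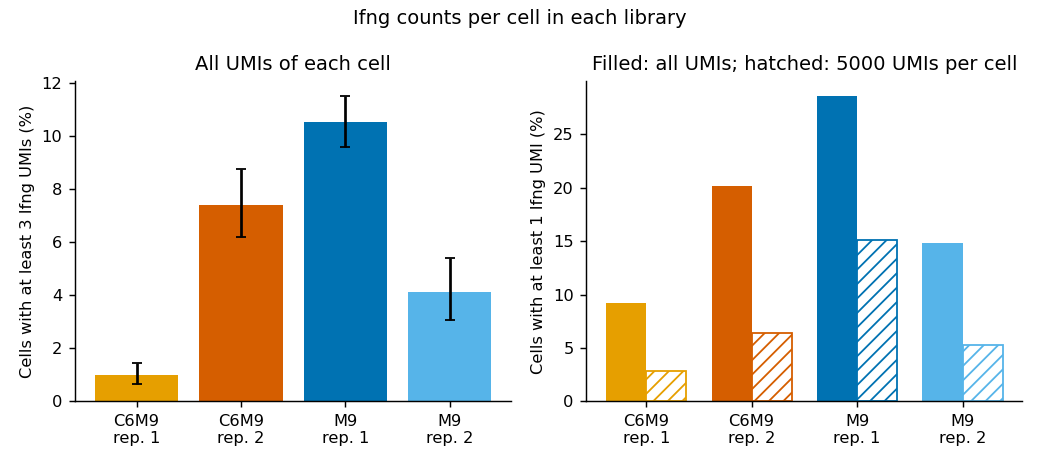
Share of filtered cells with at least 3 Ifng UMIs (left, percent, bars with 95% exact binomial intervals) and with at least 1 Ifng UMI (right, percent), for the 4 libraries. Filled bars use all UMIs of a cell and hatched bars the share expected for 5000 UMIs drawn from each cell. M9 replicate 1 is highest and C6M9 replicate 1 lowest in both panels.

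Most Ifng cells held few copies. The median was 3 and 4 Ifng UMIs per cell in C6M9 replicates 1 and 2 and 4 in both M9 replicates, and the highest cell held 9, 22, 27 and 15 UMIs in C6M9 replicates 1 and 2 and M9 replicates 1 and 2. The Ifng cells nevertheless carried 71.4% of all Ifng UMIs in C6M9 replicate 2, 71.0% in M9 replicate 1 and 62.6% in M9 replicate 2, but 29.0% in C6M9 replicate 1. Summed Ifng was 82.9 and 78.9 UMIs per 1000000 in C6M9 Ifng cells and 222 and 145 in M9 Ifng cells, against 4.67, 5.86, 16.2 and 5.43 in the remaining cells of the same 4 libraries. This gap follows from the threshold and is given as a description. Just inside the threshold, 18, 49, 137 and 19 cells held exactly 3 Ifng UMIs, and just outside it 46, 60, 245 and 35 cells held 2, in the same library order.

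Free RNA in the droplets was judged from cells that the B cell filter had removed. Among 55 of them with at most 2 UMIs over 5 T cell genes, none held an Ifng UMI, which allows a share of up to 5.45% with at least 1 UMI. These cells had a median of 4588 UMIs, fewer than the Ifng cells. Of all 150 cells removed by that filter, which included cells rich in T cell genes, 41 held an Ifng UMI.

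A raw UMI threshold selects deeply captured cells, and the Ifng cells were deeper than the others in every library. Their median was 41679 and 55338 UMIs in C6M9 replicates 1 and 2, against 13515 and 19621 in the remaining cells. It was 18916 and 27912 UMIs in M9 replicates 1 and 2, against 12810 and 19737. The ratio was thus 3.08 and 2.82 in C6M9 and 1.48 and 1.41 in M9, so the Ifng cells of C6M9 were a deeper selection than those of M9. The highest doublet scores fell on 1 and 8 Ifng cells of C6M9 replicates 1 and 2 and on 35 and 0 of M9 replicates 1 and 2. In C6M9 that was 3.57% and 6.50% of Ifng cells, against 2.68% and 1.10% of remaining cells. In M9 it was 8.08% and 0% of Ifng cells, against 3.36% and 0.963%. The share of Ifng cells in cells with 10000 to 20000 UMIs was 0.727% and 3.78% in C6M9 and 9.28% and 1.31% in M9. At 20000 to 40000 UMIs it was 0.554% and 4.805% in C6M9 and 17.1% and 6.604% in M9, so that M9 replicate 2 lay above C6M9 replicate 2 in this class and below it in the class before. In cells with 40000 or more UMIs it was 3.804% and 17.4% in C6M9 and 26.8% and 8.19% in M9.

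**Figure D2:**
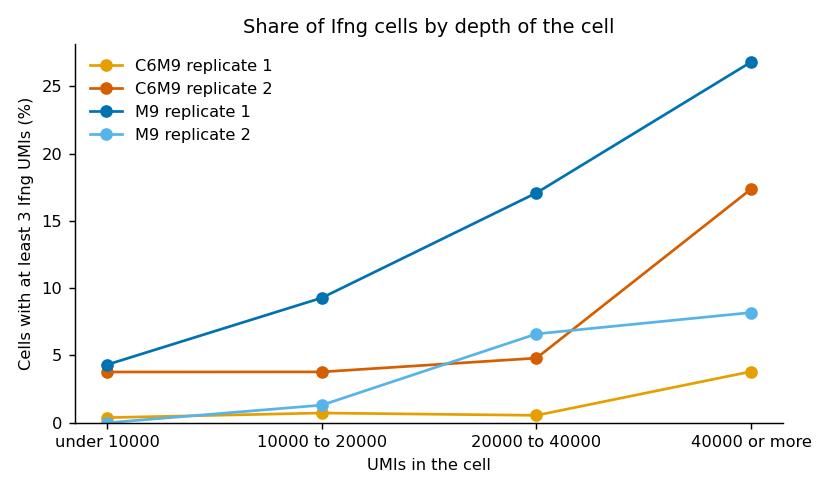
Percent of cells with at least 3 Ifng UMIs (y axis) in 4 classes of UMIs per cell (x axis), one line per library. The deepest class has the highest share in each library, and M9 replicate 1 lies above the other libraries in every class.

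For 5000 UMIs drawn from each cell, the order of the libraries was that of all UMIs, unlike in the class of 20000 to 40000 UMIs. At this depth the expected share with at least 1 Ifng UMI was 2.85% and 6.42% of C6M9 cells and 15.1% and 5.29% of M9 cells, and it was 9.24%, 20.1%, 28.5% and 14.8% before drawing, in the same library order. Cells with fewer than 5000 UMIs were left out, 27 and 11 in C6M9 and 49 and 24 in M9.

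The Ifng cells were CD8 T cells by their transcripts. Cd8a was seen in all of them in 3 libraries and in 99.8% in M9 replicate 1, and Cd8b1 and Cd3e in all of them in all 4. The summed level of 11 T cell identity genes was 7543 and 7939 UMIs per 1000000 in the Ifng cells of C6M9, against 7524 and 7796 in the remaining cells. In M9 it was 8567 and 7807 per 1000000 in the Ifng cells, against 8126 and 7925. The label of CD44 sorted cells can be set beside Cd44 itself, seen in 71.4% and 91.9% of C6M9 Ifng cells and 81.8% and 89.8% of M9 Ifng cells. Among defining markers of other cells, Ncr1 of natural killer cells and Cd14 of monocytes were at 0 in the Ifng cells of every library. Foxp3 was at 0 in 3 libraries and had 1 UMI in M9 replicate 1. Cd4 was found in 7.14% and 8.13% of C6M9 Ifng cells, against 1.81% and 1.82% of remaining cells, and in 7.62% and 4.08% of M9 Ifng cells, against 2.44% and 2.89%. These shares use all UMIs, and per 1000000 UMIs Cd4 stood at 2.93 and 1.63 in C6M9 Ifng cells, against 1.24 and 1.03, and at 5.51 and 1.07 in M9 Ifng cells, against 2.82 and 2.58. The 8 CD4 and regulatory T cell markers summed to 185 to 458 UMIs per 1000000 in Ifng cells and 209 to 491 in remaining cells. The 6 gamma delta T cell markers summed to 359 to 405 and 411 to 438, nearly all of it Trdc, which was found in 82.7% to 91.9% of Ifng cells and 73.5% to 80.4% of remaining cells. The part of such cells in the results was not tested. The 12 B cell markers summed to 346 to 367 UMIs per 1000000 in Ifng cells and 297 to 395 in remaining cells, and the 14 myeloid and dendritic markers to 76.5 to 111 and 88.3 to 104. The 10 natural killer markers, which include Eomes and Nkg7 of CD8 T cells, summed to 935 to 1158 and 888 to 1144.

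More Ifng cells than remaining cells held cell cycle transcripts, beside their greater depth. Over 1 UMI of Mki67 and Top2a together was found in 64.3% and 60.2% of C6M9 Ifng cells, against 32.2% and 36.6% of the remaining cells, and in 39.5% and 55.1% of M9 Ifng cells, against 26.3% and 37.1%. Per 1000000 UMIs, Mki67 did not pass the test (log2 difference -0.08 ± 0.09, SE; adjusted p = 0.829, edgeR). None of 20 S phase and none of 20 G2 and M phase genes passed.

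The first comparison asked which other genes differed between Ifng cells and the remaining cells of the same library. Genes that TCR signalling induces were among the higher ones. They included the chemokine genes Ccl3, Ccl4 and Xcl1 and the transcription factor genes of the Nr4a and Egr families. Others were the costimulatory genes Tnfrsf4 and Tnfsf14, the surface protein gene Cd200 and the inhibitory receptor gene Lag3. S1pr1, a gene of lymph node egress, was lower, as was Itga4, an integrin chain gene. UMIs were summed over the Ifng cells and over the remaining cells of each library and compared in edgeR with library as a block (8 sums, quasi-likelihood test, Benjamini-Hochberg adjustment at 0.05). Of 11924 genes tested, 103 (0.864%) were higher and 49 (0.411%) lower in the Ifng cells, 1.27% in all. The higher genes had the same sign in all 4 libraries in 84 cases and the lower genes in all 49. A test with library as a block favours such genes. Of all 11924 genes tested, 1087 were higher and 1230 lower in all 4 libraries. Ifng cells were also defined by at least 2 Ifng UMIs that made up at least 2 per 10000 UMIs of the cell. The split then turned to 232 higher and 473 lower, and 11 of the 152 genes changed sign. The count was 34 without M9 replicate 1 (24 higher and 10 lower), 86 without C6M9 replicate 1, 85 with DESeq2 and 65 among cells of 20000 to 60000 UMIs.

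Ccl4 had the largest log2 difference of the named higher genes. Ccl4, which encodes MIP-1 beta, stood at 71.99 and 14.5 CPM (UMIs per 1000000 after TMM scaling) in the Ifng cells of C6M9 replicates 1 and 2, against 9.24 and 10.0 CPM in the remaining cells. In M9 it stood at 72.4 and 147 CPM in the Ifng cells, against 34.6 and 21.9 CPM. The log2 difference was 1.67 ± 0.25 (SE, 4 libraries; adjusted p = 0.002, edgeR). All 4 libraries pointed the same way, but a few cells carried the sums. A single cell held 80 of the 101 Ccl4 UMIs of the Ifng cells of C6M9 replicate 1, and without it their unscaled level was 15.7 UMIs per 1000000, against 8.88 in the remaining cells. In M9 replicate 2 a single cell held 168 of 286 Ccl4 UMIs, and the level was 64.1 per 1000000 without it, against 22.9.

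Ccl3, which encodes MIP-1 alpha, had 3.56 and 4.56 CPM in C6M9 Ifng cells, against 2.13 and 2.99 CPM in the remaining cells, and 21.1 and 24.7 CPM in M9 Ifng cells, against 10.4 and 4.42 CPM. It differed by 1.21 ± 0.20 (adjusted p = 0.004, edgeR). Only 5 Ccl3 UMIs were present in the Ifng cells of C6M9 replicate 1, 4 of them in 1 cell. Xcl1, which encodes lymphotactin, a chemokine that draws cross-presenting dendritic cells, had 73.4 and 34.8 CPM in C6M9 Ifng cells, against 38.2 and 40.1 CPM, and 196 and 275 CPM in M9 Ifng cells, against 117 and 57.0 CPM. C6M9 replicate 2 went the other way, and the log2 difference was 0.94 ± 0.22 (adjusted p = 0.044, edgeR). In M9 replicate 2 a single cell held 328 of 533 Xcl1 UMIs, and the level without it was 111 per 1000000, against 59.6. Ccl5 stood at -0.37 ± 0.17 and did not pass (adjusted p = 0.472, edgeR). Without M9 replicate 1, Ccl4 alone of these 5 chemokine genes passed, and Ccl3 stood at 1.44.

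Ccl4 transcript was found in a minority of Ifng cells. Ccl4 was detected in 28.6% and 26.8% of the Ifng cells of C6M9, against 6.401% and 9.14% of the remaining cells, and in 24.2% and 38.8% of the Ifng cells of M9, against 13.8% and 8.67%. Nr4a1 was detected in 75% and 66.7% of the Ccl4 positive Ifng cells of C6M9, against 25% and 41.1% of the other Ifng cells. In M9 it was 53.3% and 68.4%, against 38.7% and 40.0%. None of Ccl3, Ccl4, Nr4a1 and Xcl1 was seen in 39.3% and 24.4% of C6M9 Ifng cells, against 71.2% and 60.1% of remaining cells, and in 24.0% and 20.4% of M9 Ifng cells, against 45.9% and 57.1%. These shares use all UMIs and so carry the difference in depth.

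At 5000 UMIs per cell the shares of positive cells still differed in each library. Ccl4 was then found in 8.95% and 6.07% of C6M9 Ifng cells, against 2.43% and 2.95% of remaining cells, and in 13.3% and 18.9% of M9 Ifng cells, against 7.59% and 3.22%. Nr4a1 was found in 15.5% and 8.66% of C6M9 Ifng cells, against 2.28% and 4.04%, and in 16.9% and 22.7% of M9 Ifng cells, against 8.42% and 3.70%. Lag3 was found in 55.8% and 38.3% of C6M9 Ifng cells, against 27.2% and 28.3%, and in 69.4% and 73.5% of M9 Ifng cells, against 53.3% and 51.4%. The gap for Lag3 was smallest in C6M9 replicate 2. Mki67 was higher in all 4 libraries at this depth, at 49.8% and 33.0% of C6M9 Ifng cells, against 24.6% and 22.6%, and 19.8% and 23.9% of M9 Ifng cells, against 16.6% and 20.9%.

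Of 22 transcription factor genes induced early by the TCR, 10 were higher and 1 lower in the Ifng cells. The higher ones were Nr4a1, Nr4a2, Nr4a3, Egr1, Egr2, Egr3, Nfatc1, Fos, Nfkb2 and Bhlhe40, and the lower one was Ikzf2, which encodes Helios. Over all genes tested, 0.864% were higher and 0.411% lower. The median log2 difference of the list was 0.36, against 0.0008 over all genes tested. The gene lists here and below were chosen with earlier results of these data known, so such counts give no independent support. Nr4a1 had 31.4 and 14.1 CPM in C6M9 Ifng cells, against 7.15 and 11.5 CPM, and 44.7 and 69.6 CPM in M9 Ifng cells, against 23.9 and 12.3 CPM (log2 difference 1.22 ± 0.22, adjusted p = 0.007, edgeR). Nr4a1 and Nr4a2 did not pass without C6M9 replicate 1, at 1.10 and 0.79. Bhlhe40, which encodes a transcription factor that T cells need for cytokine production, had 27.8 and 43.4 CPM in C6M9 Ifng cells, against 14.0 and 27.7 CPM, and 158 and 62.9 CPM in M9 Ifng cells, against 79.9 and 26.2 CPM. Its log2 difference was 0.93 ± 0.08. Egr1 differed by 0.91 ± 0.15 and Nr4a2 by 0.82 ± 0.17, while Irf4 (0.25 ± 0.08, adjusted p = 0.187) and Irf8 (0.13 ± 0.10, adjusted p = 0.722) did not pass in edgeR. Without M9 replicate 1 the list held 6 higher and 1 lower genes.

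Of 20 TCR induced surface and costimulatory genes, 9 were higher and none lower (median log2 difference 0.55), against 0.864% and 0.411% of all genes tested. Tnfrsf4, which encodes the costimulatory receptor OX40, had 7.13 and 3.84 CPM in C6M9 Ifng cells, against 2.99 and 2.70 CPM, and 66.2 and 46.9 CPM in M9 Ifng cells, against 31.3 and 16.6 CPM. It differed by 1.12 ± 0.11. A single cell held 6 of its 10 UMIs in the Ifng cells of C6M9 replicate 1, and without it the unscaled level was 2.99 UMIs per 1000000, against 2.88 in the remaining cells. In M9 replicate 2 a single cell held 41 of 91 UMIs, and the level was 27.2 per 1000000 without it, against 17.4. Its level in both libraries of M9 was above that in both libraries of C6M9, in the Ifng cells and in the remaining cells. Tnfsf14, which encodes the ligand LIGHT, differed by 0.95 ± 0.15, Cd200 by 0.63 ± 0.10, the death ligand gene Fasl by 1.16 ± 0.23 and the early activation gene Cd69 by 0.35 ± 0.07. Tnfrsf18, Tnfsf4, Tnfsf8 and Tnfsf11 were the other higher genes. Icos (0.25 ± 0.07, adjusted p = 0.071, edgeR) and Cd28 (0.04 ± 0.05, adjusted p = 0.861) did not pass. Without M9 replicate 1 the number higher was 3.

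Genes that limit TCR and NF-kB signalling were higher too, 10 of 26 (median log2 difference 0.29) against 0.864% of all genes tested, with none lower. They included Nfkbia and Tnfaip3, inhibitors of NF-kB, the phosphatase genes Dusp1 and Dusp2, the cytokine signalling inhibitor gene Socs1 and the mRNA decay genes Zfp36 and Zfp36l1. Nfkbia had 190 and 262 CPM in C6M9 Ifng cells, against 136 and 188 CPM, and 407 and 155 CPM in M9 Ifng cells, against 282 and 139 CPM (0.43 ± 0.06). Dusp1 differed by 0.49 ± 0.08, but its CPM in C6M9 replicate 1 were 11.4 in Ifng cells and 11.2 in the remaining cells. The list held 2 higher genes without M9 replicate 1.

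Of 14 inhibitory receptor and exhaustion genes, Lag3, Havcr2, Cd160 and Ctla4 were higher and none was lower (median log2 difference 0.31). Over all genes tested, 0.864% were higher. Lag3, which encodes a receptor that restrains T cells on binding MHC class II, had 148 and 108 CPM in C6M9 Ifng cells, against 79.5 and 83.2 CPM, and 273 and 306 CPM in M9 Ifng cells, against 181 and 169 CPM (0.65 ± 0.07). Cd160 differed by 0.62 ± 0.08. Havcr2, which encodes TIM-3, differed by 1.07 ± 0.20 at a low level, 4.53 to 11.4 CPM in Ifng cells and 2.81 to 4.39 CPM in remaining cells. Pdcd1, which encodes PD-1, stood at 0.35 ± 0.09 and did not pass (adjusted p = 0.077, edgeR). Without M9 replicate 1 the list held 3 higher genes.

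Tnf was the only higher gene among 8 other cytokine genes tested. It had 19.2 and 13.1 CPM in C6M9 Ifng cells, against 9.44 and 9.45 CPM, and 24.6 and 26.3 CPM in M9 Ifng cells, against 16.5 and 10.7 CPM (0.71 ± 0.12, adjusted p = 0.004, edgeR). Il2, the T cell growth factor gene, stood at 0.72 ± 0.21 and did not pass (adjusted p = 0.124, edgeR). Its level was 5.70 and 5.88 CPM in C6M9 Ifng cells, against 6.23 and 4.75 CPM, and 7.02 and 18.6 CPM in M9 Ifng cells, against 4.45 and 5.10 CPM.

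Among 14 genes that regulate Ifng, only Il18r1, which encodes a chain of the interleukin 18 receptor, was higher (0.40 ± 0.07). Tbx21, which encodes T-bet, stood at 0.43 ± 0.13 and did not pass (adjusted p = 0.161, edgeR), nor did Eomes (0.11 ± 0.07), Runx3 (0.18 ± 0.06) or Stat4 (-0.03 ± 0.06). Of 19 genes of the interferon gamma receptor and response, Socs1 was higher (0.34 ± 0.08), while Irf1 (0.01 ± 0.07) did not pass. None of 19 type I interferon stimulated genes passed in either direction.

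Nrgn, which encodes the calmodulin-binding protein neurogranin, had 133 and 39.2 CPM in C6M9 Ifng cells, against 32.0 and 32.0 CPM, and 141 and 152 CPM in M9 Ifng cells, against 81.6 and 58.3 CPM (1.03 ± 0.16). Gpm6b, a membrane glycoprotein gene, differed by 1.02 ± 0.11, and Gcnt1, which encodes an enzyme that branches O-glycans, by 0.72 ± 0.12 (0.70 without M9 replicate 1, where it did not pass). Hk2, a hexokinase gene, was the only one of 13 glycolysis genes that passed (0.66 ± 0.13). Gadd45b and the paralogs Bcl2a1b and Bcl2a1d, whose UMIs can be split between near-identical copies, were higher among 13 apoptosis genes. None of 20 ribosome biogenesis and none of 13 amino acid and transporter genes passed.

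Of 16 progenitor and memory genes, 6 were lower in the Ifng cells and none was higher (median log2 difference -0.21). Over all genes tested, 0.411% were lower and 0.864% higher. S1pr1, which encodes the receptor for egress from lymph nodes, had 77.0 and 103 CPM in C6M9 Ifng cells, against 108 and 115 CPM in the remaining cells, and 42.3 and 42.3 CPM in M9 Ifng cells, against 65.2 and 76.6 CPM (-0.46 ± 0.08). Klf2, a transcription factor gene that drives S1pr1 expression, differed by -0.35 ± 0.07, and Lef1, another transcription factor gene, by -0.30 ± 0.07. Myb (-0.39 ± 0.06) and Ly6c2 (-0.28 ± 0.05) were lower as well, and reads of Ly6c2 can be shared with its paralog Ly6c1. Tcf7, which encodes TCF-1 of progenitor exhausted cells, stood at -0.13 ± 0.06 (adjusted p = 0.462, edgeR) and Slamf6 at -0.03 ± 0.06 (adjusted p = 0.942). Tcf7 was seen in 96.4% and 97.6% of C6M9 Ifng cells, against 98.4% and 99.2% of remaining cells. In M9 replicates 1 and 2 it was seen in 97.5% and all of the Ifng cells, against 98.2% and 99.2%. At 5000 UMIs per cell Tcf7 was found in fewer Ifng than remaining cells of every library. It was then found in 76% and 88.6% of C6M9 Ifng cells, against 89% and 89.5% of remaining cells. In M9 it was 84.4% and 85.1% of Ifng cells, against 87.8% and 89.9%. Without M9 replicate 1 the list held 2 lower genes.

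Outside the lists, Itga4 was lower. It had 88.4 and 105 CPM in C6M9 Ifng cells, against 126 and 128 CPM, and 74.4 and 40.2 CPM in M9 Ifng cells, against 137 and 130 CPM (-0.73 ± 0.12). At 5000 UMIs per cell, however, it was found in 40.4% of Ifng cells and 38.4% of remaining cells of C6M9 replicate 2, and in fewer Ifng than remaining cells of the other 3 libraries. The transcription factor gene Sox4 differed by -0.74 ± 0.12, with 9.27 CPM in Ifng cells and 9.93 CPM in remaining cells of C6M9 replicate 1. Tsc22d3 (-0.38 ± 0.08), the glucocorticoid induced gene, and Acp5 (-0.38 ± 0.08), a phosphatase gene, were lower, as were AY036118 (-0.72 ± 0.13), Mirt1 (-0.55 ± 0.10), Tmem108 (-0.48 ± 0.11), Lcn4 (-0.45 ± 0.10) and Dnah8 (-0.40 ± 0.09). Of the 12 lower genes named by size, Itga4 (-0.68), Mirt1, Tmem108, S1pr1, Lcn4, Dnah8, Tsc22d3 and Acp5 did not pass without M9 replicate 1. The last 6 of these 8, and AY036118 (-0.71), did not pass without C6M9 replicate 1. Tsc22d3 did not pass without C6M9 replicate 2, nor Tmem108 and Dnah8 without M9 replicate 2, and each kept its sign. AY036118 and Tsc22d3 changed sign, to 0.11 and 0.088, when Ifng cells were defined by at least 2 Ifng UMIs and at least 2 per 10000. Among cytotoxic genes only Gzmk passed, at -1.25 ± 0.16, in cells whose Gzma and Gzmb the filter had limited. Lyz2, a myeloid gene, was lower in Ifng cells as well. Its UMIs in the remaining cells of C6M9 replicate 1, 428 in all, came from 0.398% of cells.

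**Figure D3:**
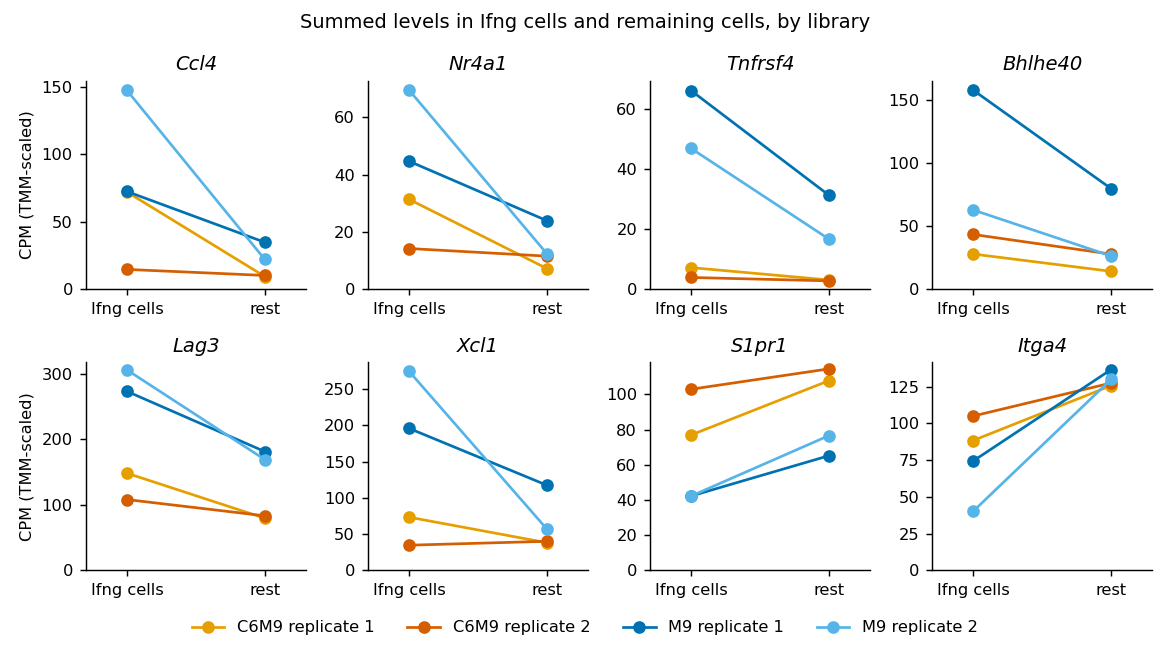
Summed level (y axis, TMM-scaled UMIs per 1000000, CPM) of 8 genes in the Ifng cells (left of each panel) and the remaining cells (right), one line per library. Lag3 and Bhlhe40 were higher and S1pr1 and Itga4 lower in the Ifng cells of every library, while C6M9 replicate 2 shows the smallest gap for Ccl4 and Nr4a1.

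Levels also differed with the number of Ifng UMIs in a cell, though not in the same way in each library. In M9 replicate 1, the library with most cells, Bhlhe40 stood at 70.4 UMIs per 1000000 in the 2944 cells with 0 Ifng UMIs, 141 in the 137 cells with 3 and 181 in the 51 cells with 10 or more. Xcl1 stood at 115, 187 and 310 per 1000000 and Cd8a at 542, 656 and 762 in the same classes, and Itga4 at 147, 86.9 and 53.9. In C6M9 replicate 2, Itga4 stood at 109.6 per 1000000 in the 14 cells with 10 or more Ifng UMIs and 122 in the 1331 cells with 0. Bhlhe40 there stood at 24.8, 40.7 and 39.9 per 1000000 in cells with 0, 3 and 10 or more Ifng UMIs. Xcl1 stood at 41.2, 24.5 and 42.9 in the same classes of that library. Lag3 there stood at 78.4 per 1000000 in cells with 0 Ifng UMIs, at 113, 104 and 109 in the classes with 3, 4 and 5 to 9 (49, 19 and 41 cells), and at 62.8 in the class with 10 or more. Itga4 thus differed less between the classes in this library, which had the next largest number of Ifng cells, than in M9 replicate 1. Classes hold cells of different depth, and cells of 1 library are not replicates.

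**Figure D4:**
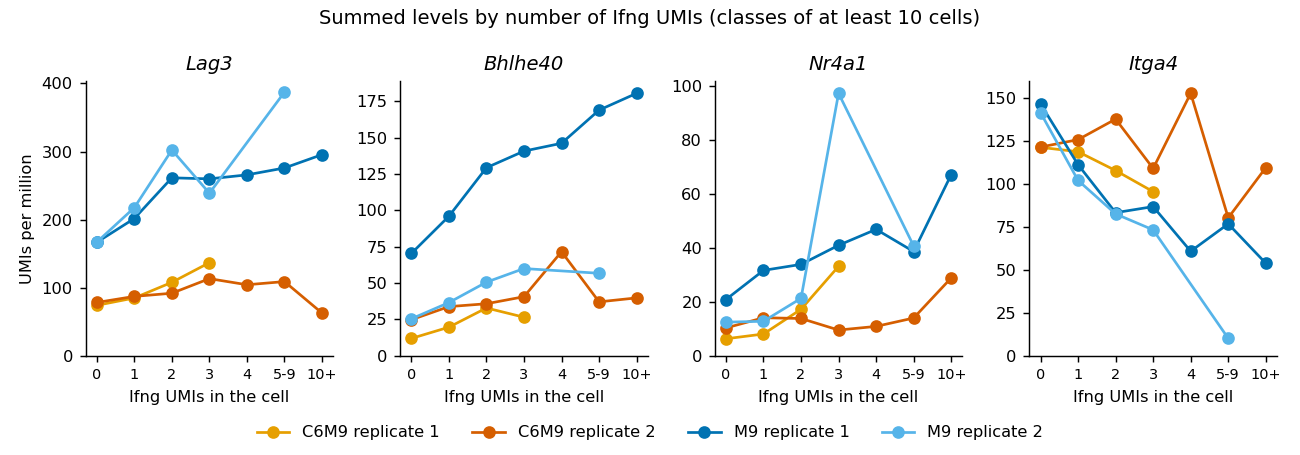
Summed level (y axis, unscaled UMIs per 1000000) of Lag3, Bhlhe40, Nr4a1 and Itga4 in cells grouped by their number of Ifng UMIs (x axis), one line per library, for classes of at least 10 cells. Bhlhe40 in M9 replicate 1 runs upward from 70.4 to 181 per 1000000, and Itga4 in C6M9 replicate 2 lies between 80.4 and 153.

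The second comparison asked how low and high affinity differed within the Ifng cells. The Ifng cells of C6M9 had more transcript of Ccl5, a chemokine gene of effector and memory cells, of Il7r, Ly6c2, Plac8 and S1pr1. They had less of the progenitor and memory genes Slamf6 and Myb, of the OX40 genes Tnfrsf4 and Tnfsf4, of Xcl1 and Ccl3, and of Egr2, Nr4a2 and Rgs16, genes that TCR signalling induces. Of 10349 genes tested over the 4 sums of Ifng cells, 28 (0.271%) were higher and 106 (1.02%) lower in C6M9, 1.29% in all (edgeR). The same contrast in the remaining cells had 243 higher (1.81%) and 541 lower (4.04%) of 13392, 5.85% in all, from much larger sums, and this split was 147 higher and 771 lower with library size as the only scaling and 396 higher and 502 lower with DESeq2. Among cells of 20000 to 60000 UMIs no gene passed within the Ifng cells in edgeR, with 472 at an unadjusted p under 0.05, where 10 and 39 C6M9 and 182 and 35 M9 Ifng cells were left. The count was 64 with every cell drawn to 5000 UMIs, 79 without M9 replicate 2 and 38 with the replicate number as a block. In the remaining cells it was 390 and 454 without C6M9 replicates 1 and 2, and 1225 and 1456 without M9 replicates 1 and 2.

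Tnfrsf4 averaged 5.52 ± 2.34 CPM in C6M9 Ifng cells and 57.2 ± 13.4 CPM in M9 Ifng cells (SD, n = 2 each), a log2 difference of -3.70 ± 0.29 (SE; adjusted p = 6.19e-04, edgeR). In the remaining cells it averaged 2.83 ± 0.21 CPM in C6M9 and 23.7 ± 10.3 CPM in M9, a difference of -3.08 ± 0.29. Its ligand gene Tnfsf4 had 12.9 and 1.45 CPM in C6M9 Ifng cells and 41.6 and 55.1 CPM in M9 Ifng cells (-3.70 ± 0.57). Gpm6b (-2.78 ± 0.26), Wnt10a (-2.62 ± 0.31), Rgs16 (-2.56 ± 0.27), Cxcl10 (-2.43 ± 0.31), Egr2 (-2.39 ± 0.43) and Nr4a2 (-2.29 ± 0.28) followed in the named order of size. Both libraries of M9 lay above both of C6M9 for each of these, by the rule that named them.

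Ccl3 averaged 4.09 ± 0.71 CPM in C6M9 Ifng cells and 23.2 ± 2.76 CPM in M9 Ifng cells (-2.37 ± 0.27, adjusted p = 0.0034, edgeR). A single cell held 30 of its 48 UMIs in M9 replicate 2, and without it the unscaled level was 9.78 UMIs per 1000000 in place of 25.7. Without the cell that held 4 of the 5 UMIs of C6M9 replicate 1, the level there was 0.759 per 1000000, against 2.05 in the remaining cells. Ccl4 had 72.5 and 14.6 CPM in C6M9 and 72.9 and 150 CPM in M9, so the groups came close, and its difference of -1.64 ± 0.58 did not pass (adjusted p = 0.28, edgeR). It was 0.34 among cells with at least 5 Ifng UMIs and 0.70 among those with at least 2 that made up at least 2 per 10000. Nr4a1 had 31.6 and 14.3 CPM in C6M9 and 45.0 and 70.8 CPM in M9 and did not pass (-1.52 ± 0.33, adjusted p = 0.0588, edgeR). Ccl4 and Nr4a1 passed without C6M9 replicate 1 (-2.88 and -1.96) and without M9 replicate 1 (-2.16 and -1.89). Bhlhe40 (-1.61 ± 0.35, adjusted p = 0.0582) and Tnf (-0.77 ± 0.23, adjusted p = 0.184) did not pass in edgeR either. Ifng itself averaged 81.5 ± 0.64 CPM in C6M9 Ifng cells and 183 ± 58.2 CPM in M9 Ifng cells, a level that depends on the threshold and on the greater depth of the C6M9 cells.

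By list, 10 of 20 TCR induced surface and costimulatory genes were lower and none was higher in C6M9 Ifng cells, with a median log2 difference of -1.07 against 0.0046 over all genes tested. Icos had 77.5 and 66.7 CPM in C6M9 and 136 and 133 CPM in M9 (-0.92 ± 0.15), and Tnfrsf9, which encodes 4-1BB, averaged 30.0 ± 9.29 CPM in C6M9 and 68.0 ± 3.44 CPM in M9 (-1.30 ± 0.21). In the remaining cells 10 of the 20 were lower and 1 higher. Of 13 inhibitory receptor and exhaustion genes, Lag3 (-1.21 ± 0.17), Tox (-1.04 ± 0.14) and Nt5e were lower and none was higher. In the remaining cells 8 of 14 such genes were lower, with Lag3, Tox and Nt5e among them, and none was higher. Of 12 regulators of Ifng, Eomes (-1.15 ± 0.15) and Bcl6 were lower, and both passed in the remaining cells too. Of 22 early transcription factor genes, Nr4a2, Nr4a3 and Egr2 were lower. In the remaining cells 7 of the 22 were lower, with Egr2 among them.

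Of the 16 progenitor and memory genes, 4 were higher in C6M9 Ifng cells, namely Il7r, S1pr1, Klf2 and Ly6c2. Another 2 were lower, namely Slamf6 (-0.84 ± 0.15) and Myb (-0.89 ± 0.16), and the median log2 difference was 0.28. All of these genes passed in the remaining cells too, where 5 of the 16 were higher and 3 lower. Tcf7 stood at 0.08 ± 0.16 and did not pass (adjusted p = 0.931, edgeR). Il7r, which encodes the interleukin 7 receptor, averaged 265 ± 9.98 CPM in C6M9 Ifng cells and 115 ± 17.3 CPM in M9 Ifng cells (1.19 ± 0.15), and its difference in the remaining cells was 1.11 ± 0.12. Ccl5 had 210 and 261 CPM in C6M9 and 100.3 and 44.6 CPM in M9 (1.63 ± 0.28). Plac8 differed by 1.54 ± 0.20, Ly6c2 by 1.25 ± 0.18, S100a6 by 1.21 ± 0.24 and S1pr1 by 1.12 ± 0.17. Ifit1, an interferon stimulated gene, differed by 1.22 ± 0.24 and was the only one of 18 such genes that passed. The inhibitory lectin receptor gene Klrc1 differed by 1.04 ± 0.19 in the Ifng cells and by 0.15 ± 0.17 in the remaining cells, and the test of the gap between these 2 did not pass (0.73 ± 0.18, adjusted p = 0.126, edgeR). Ifit1, S1pr1, Klrc1 and Egr2 did not pass in the Ifng cells without C6M9 replicate 2 (0.68, 0.85, 0.90 and -1.29) or without M9 replicate 2 (1.14, 1.13, 0.91 and -2.01), nor did S100a6 without M9 replicate 2 (0.83).

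**Figure D5:**
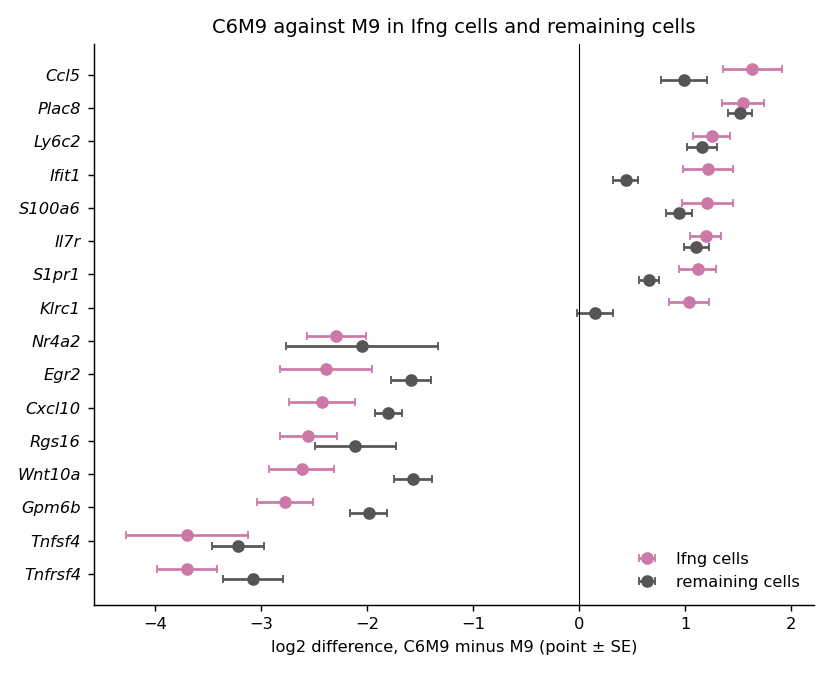
Log2 difference of C6M9 minus M9 (x axis, point ± SE, n = 2 libraries per group) for the 16 named genes, in the Ifng cells and in the remaining cells. All 16 lie on the same side of 0 in both sets of cells, and SEs of Klrc1 in the remaining cells reach 0.

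The third comparison asked whether Ifng cells stood apart from the remaining cells by another amount in C6M9 than in M9. The product of cell set and group passed for 15 of 12600 genes (0.119%), 5 with a more positive (0.0397%) and 10 with a more negative (0.0794%) difference in C6M9, and for 3 genes with DESeq2. The number was 42 and 100 without C6M9 replicates 1 and 2, and 55 and 8 without M9 replicates 1 and 2. Xcl1 is the chemokine among them. Its gap between Ifng and remaining cells was 1.21 lower on the log2 scale in C6M9 (-1.21 ± 0.24, adjusted p = 0.0088, edgeR), and it did not pass without C6M9 replicate 2 (-0.49) or without M9 replicate 2 (-0.54). Tnfsf8, which encodes CD30 ligand, had 62.9 and 39.9 CPM in C6M9 Ifng cells and 155 and 115 CPM in M9 Ifng cells, against 45.1 and 41.2 CPM in C6M9 remaining cells and 76.5 and 62.8 CPM in M9 remaining cells (-0.82 ± 0.15). Nrn1 (-0.93 ± 0.15) and Tagap (-0.82 ± 0.16) went the same way. Itga4 (0.76 ± 0.15) and the chemotactic receptor gene Gpr183 (0.78 ± 0.15) went the other way, the Ifng cells of M9 being further below their remaining cells than those of C6M9. Gpr183, Tagap and Itga4 did not pass without C6M9 replicate 2 (0.59, -0.44 and 0.59) or without M9 replicate 2 (0.61, -0.74 and 0.51), nor did Tnfsf8 (-0.49) without C6M9 replicate 2 or Nrn1 (-0.59) without M9 replicate 2. Ccl3, Ccl4, Nr4a1 and Ifng regulators such as Eomes did not pass.

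Cd74, an MHC class II chaperone gene, had 53.7 and 36.1 CPM in C6M9 Ifng cells and 137 and 121 CPM in M9 Ifng cells, against 41.4 and 44.0 CPM in C6M9 remaining cells and 66.5 and 51.7 CPM in M9 remaining cells (product -1.18 ± 0.15, adjusted p = 6.76e-06, edgeR), and it passed with each library left out. The MHC class II genes H2-Aa, H2-Ab1 and H2-Eb1 also passed, at low levels that rested on M9 replicate 1. H2-Aa had 2.83 and 1.08 CPM in C6M9 Ifng cells and 5.55 and 0 CPM in M9 Ifng cells, against 5.45 and 6.15 CPM in C6M9 remaining cells and 0.876 and 1.57 CPM in M9 remaining cells. Without M9 replicate 1 the products of all 3 MHC class II genes changed sign and did not pass (adjusted p = 0.986 for each, edgeR). These genes and Cd74 also mark B cells and dendritic cells, whose other markers are given above. The part of such cells was not tested.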

How the data were processed

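The authors deposited raw counts, as UMI counts per gene and barcode in 1 matrix per library, made with Cell Ranger 6.0.0 on mm10 per the submitters' processing notes. For the annotation release and for intronic reads, the setting is not given in the sources used here. Libraries held 73.4 and 65.7 M UMIs in 3220 and 1982 barcodes of C6M9 and 79.2 and 33.7 M UMIs in 4586 and 1325 barcodes of M9 (M, 1000000). Like barcodes in a pair of libraries numbered 7, of which 2 were Ifng cells in a library. Of 32285 features, 32235 matched GENCODE M21 (GRCm38) by gene identifier.

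Raw counts were summed per library over Ifng cells and over remaining cells. Sums were tested two-sided in edgeR 4.0.16 (R 4.3.3; TMM, filterByExpr, quasi-likelihood with trended dispersion, Benjamini-Hochberg at 0.05), leaving out the genes that define the cells. The comparisons were Ifng against remaining cells with library as a block, C6M9 against M9 within each set, and the product of both. SEs of the log2 difference were derived as its absolute value divided by the square root of the quasi-likelihood F statistic, which is moderated across genes. DESeq2 1.42.0 was an alternative. Scrublet (scanpy 1.11.5) marked 0.062% to 0.377% of barcodes as doublets, too few to have worked, so the highest scores (0.8% per 1000 barcodes) were left out only as an alternative. Shares at equal depth are those expected (hypergeometric) for 5000 UMIs drawn per cell, and sums at equal depth come from 1 such draw.

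The cells and the gene lists were chosen with earlier results of these data known, and Ccl3, Ccl4 and Nr4a1 were proposed as markers in that light, so their differences give no independent support. Genes named by size had an adjusted p under 0.05 and a mean of at least 20 CPM. They were the 12 largest per direction with the same sign in all 4 libraries (Ifng against remaining cells), the 8 largest per direction with groups that did not overlap (C6M9 against M9), and the 8 smallest p (product). Variable receptor, ribosomal, mitochondrial and unnamed genes were left out. List members were named besides. Some genes that meet these rules or belong to the lists are not reported here. Promoter sequences are from RefSeq (GRCm38.p6).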

Additional observations from a re-analysis of the deposited data

Results flagged for a closer look

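The gap between Ifng cells and remaining cells differed between the groups, by the product term of edgeR, for 15 genes. For 10 of them, those named by the rules or on a list, the log2 value of C6M9 minus M9 was as follows. It was -1.18 for Cd74, -4.08 for H2-Aa, -5.28 for H2-Ab1, -1.21 for Xcl1, -0.93 for Nrn1, -0.82 for Tnfsf8, -0.82 for Tagap, -0.73 for AY036118, 0.78 for Gpr183 and 0.76 for Itga4. The values of H2-Aa and H2-Ab1 rest on M9 replicate 1: with that library left out they were 6.12 and 5.38, of the other sign, and did not pass (adjusted p = 0.986 for each, edgeR). Both genes were at 0 in the Ifng cells of M9 replicate 2, so these fitted values depend on the prior count. AY036118 stood at -0.43 without M9 replicate 2 and did not pass. Only 1 of the 8 genes named in that comparison passed among cells of 20000 to 60000 UMIs, and 2 with every cell drawn to 5000 UMIs.

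Ifng was also present in cells outside the comparisons, those that the granzyme filter had removed. At least 3 Ifng UMIs were found in 10.1% of 169 and 26.4% of 87 such cells of C6M9 replicates 1 and 2, and in 24.8% of 129 and 15.8% of 19 such cells of M9 replicates 1 and 2. Each share is above that of the filtered cells of the same library. These cells were deep, with medians of 48780 and 66227 UMIs in C6M9 and 35527 and 50503 UMIs in M9, and the part of depth in the shares was not tested.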

How the results depend on the processing

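For Ifng against remaining cells the 152 genes became 85 with DESeq2, 365 with no filter on low counts, 42 at a threshold of 5 Ifng UMIs, 705 (232 higher and 473 lower) at 2 Ifng UMIs per 10000, 65 among cells of 20000 to 60000 UMIs, and 34 to 194 with a library left out. With no replicate block, that is without the library term, edgeR called 0, with 356 at an unadjusted p under 0.05. For C6M9 against M9 within Ifng cells the 134 genes became 479 with no filter, 318 and 27 at thresholds of 2 and 5 Ifng UMIs, 40 at 2 per 10000, 86 without the highest doublet scores, 0 (472 at an unadjusted p under 0.05, edgeR) at 20000 to 60000 UMIs, 64 at 5000 UMIs per cell, and 79 to 189 with a library left out. Within the remaining cells the 784 genes became 1791 with no filter, 28 at 20000 to 60000 UMIs, and 390 to 1456 with a library left out. The 15 genes of the product became 3 with DESeq2, 32 at a threshold of 5, 1 at 20000 to 60000 UMIs, 2 at 5000 UMIs per cell, and 8 to 100 with a library left out. The difference in share ranged from -6.32 to 0.0785 points with a library left out and changed sign, to 0.071 and 0.0785, without C6M9 replicate 1 and without M9 replicate 1. Where 1 library of a group was left, its spread was taken to be that of the other group. The cause was not tested for any of these.

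Like-numbered libraries are not stated to share a batch. Their deviations from the group means correlated at -0.36 in Ifng cells and -0.14 in remaining cells. The replicate block left 38 genes within Ifng cells and 541 within remaining cells, and the crossed replicate block, chosen after seeing the data, gave 705 and 1299. The range of 20000 to 60000 UMIs and the draw of 5000 UMIs were also chosen after seeing the data.

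The 52 values of named genes had 874 alternatives, of which 653 kept direction and side of the threshold, 205 lost the call, 11 gained it and 5 changed sign. The sign changes were AY036118 (0.11) and Tsc22d3 (0.088) at 2 Ifng UMIs per 10000, Tsc22d3 (0.027) at 20000 to 60000 UMIs, and Ccl4 between the groups at a threshold of 5 (0.34) and at 2 per 10000 (0.70). The 28 Ifng cells of C6M9 replicate 1 limit what could be detected in that library.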
